A study of Mus musculus with 113 samples.

Results

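The experiment described here knocked down *Nr5a2* alone in mouse embryos and sequenced their RNA at the 8-cell (8C) stage. It holds 4 of the 92 RNA libraries with deposited expression values (113 samples are listed in all). They were chosen by title: 2 libraries of *Nr5a2* knockdown (KD) embryos and the 2 negative control (NC) libraries of the same single KD experiment. The embryos carried the genotype label wild type and came from superovulated females, and zygotes were injected with 5 μM siRNA, a pool of siRNAs against *Nr5a2* in the KD group and a negative control siRNA in the NC group. These doses are those of the labels, while the study's methods name 20 μM for the NC siRNA. Per the study's methods, each library was made from a pool of embryos by Smart-seq2, which amplifies whole transcripts from few cells. All values are FPKM, fragments counted per kilobase of transcript and scaled to the mapped fragments of the library. The study calls the libraries of a group biological replicates. Whether they came from separate injections or days is not given in the sources used here. The p-values measure only the spread between libraries of the same group. For *Nr5a2* KD against NC this spread was estimated over all 10 libraries of the single KD experiment. In pooled embryos, fewer cells of a type and less RNA per cell cannot be told apart.

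*Nr5a2* encodes an orphan nuclear receptor that binds DNA as a monomer. It is known for bile acid and cholesterol metabolism in the liver and for steroid production in the ovary, and in pluripotent cells it acts on *Pou5f1* and *Nanog*. Its binding site extends the nuclear receptor core AGGTCA at the 5′ end. The 8C stage is the time of compaction and polarization, after zygotic genome activation (ZGA) and before inner cell mass (ICM), trophectoderm and primitive endoderm become distinct.

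The 4 libraries were alike in the number of genes seen but not in how expression was spread over them. Between 8107 and 8740 genes reached an FPKM of 1, and the second KD library had the lowest number. The 100 most abundant genes took 48.4% of its FPKM, against 32.4% in the first KD library and 36.1% and 36.3% in the NC libraries. Of the 6 libraries of the other single KD groups (*Rarg*, *Nr1h3* and *Nr2c2* KD), 3 also had a share of 43.7% to 46.4%. *Dppa3*, an abundant maternal and pluripotency transcript, was at 6966 FPKM in the second KD library, 1167 FPKM in the first, and 2578 and 2586 FPKM in the NC libraries. Depth is not given with FPKM. A relative depth read from the spacing of low values was 0.861 and 1.27 in the NC libraries and 1.00 and 0.690 in the KD libraries. Across genes, the 2 NC libraries correlated at r = 0.952, the 2 KD libraries at 0.930, and KD with NC libraries at 0.883 to 0.907 (Pearson on log2(FPKM + 1), a description). The counts over all genes are therefore also given without each library.

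*Nr5a2* itself was lower in both KD libraries. It was at 50.2 and 48.8 FPKM in the NC libraries and at 9.65 and 12.8 FPKM in the KD libraries (mm9 chromosome 1, 138740161 to 138857004, minus strand). The log2 fold change on the log2(FPKM + 1) scale was -2.06 ± 0.35 (SE), with an adjusted p of 0.0101 (limma, Benjamini-Hochberg adjustment over all genes tested). The KD and NC libraries did not overlap, and the 6 libraries with siRNAs against the other receptors lay in between, at 30.7 to 44.6 FPKM. The mean of the KD libraries was 11.2 ± 2.21 FPKM and that of the NC libraries 49.5 ± 1.00 FPKM (SD, n = 2 libraries). The receptors targeted in the other groups did not pass the test here. *Rarg*, a retinoic acid receptor, was at 28.0 and 33.0 FPKM in NC and 38.5 and 23.0 FPKM in KD libraries. *Nr1h3*, the liver X receptor alpha, was at 9.32 and 11.99 FPKM in NC and 21.5 and 8.02 FPKM in KD libraries. *Nr2c2*, the testicular receptor 4, was at 7.81 and 12.2 FPKM in NC and 7.63 and 9.45 FPKM in KD libraries. For all 3 the KD values overlapped the NC values or lay among them, and the sign of the *Rarg* and *Nr2c2* differences turned with the scaling. Of 14 nuclear receptors tested, 2 fell (14.3%, against 2.83% of all genes) and none rose. Beside the siRNA target *Nr5a2* itself this was *Nr4a1*, an immediate early gene, which went from 5.58 and 5.49 FPKM to a listed 0 in the first and 0.213 FPKM in the second KD library (log2 fold change -2.57 ± 0.51, adjusted p 0.0194).

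Many more genes fell than rose. Of 9400 genes that averaged 1 FPKM or more in either group, 266 were lower (2.83%) and 38 were higher (0.404%) at an adjusted p under 0.05. With the limits of the study's methods (adjusted p under 0.01, log2 fold change beyond 2 in size), 74 were lower (0.787%) and 2 higher (0.0213%). An unadjusted p under 0.05 was reached by 19.6% of the genes. The whole distribution was shifted: the median log2 fold change was -0.24, and 63.7% of all genes lay below 0. Median-ratio scaling moved this median to 0.03 and gave 220 lower and 100 higher genes, so that 68.8% of the calls were lower instead of 87.5%. Quantile normalization gave 248 and 118 (67.8% lower). Of the 266 lower genes, 207 were also called with median-ratio scaling, and all 38 higher genes were. Without the first NC library 32 genes were lower and 2 higher, without the second NC library 6 and 1, without the first KD library 301 and 40, and without the second KD library 107 and 69. Leaving out the second KD library brought the median of all genes to 0.02, and leaving out the first brought it to -0.49.

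**Figure D1:**
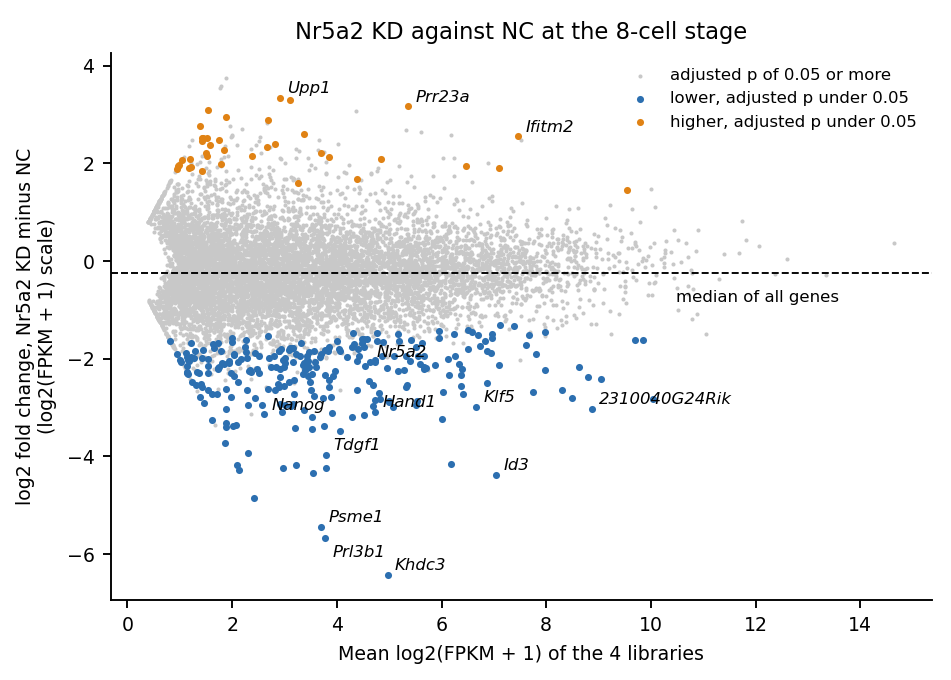
Log2 fold change of *Nr5a2* KD against NC at 8C (vertical axis) by mean log2(FPKM + 1) (horizontal axis), 1 point per gene for 9400 genes. The 266 genes called lower and 38 called higher are coloured, and the dashed line is the median of all genes at -0.24.

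The gene that fell most was *Khdc3* (*Filia*), a member of the subcortical maternal complex that is also known for genome stability in embryonic stem cells. It was at 320.3 and 264.1 FPKM in the NC libraries and at 2.14 and 2.67 FPKM in the KD libraries (log2 fold change -6.42 ± 0.46, adjusted p 8.6e-05). The 6 other single KD libraries were at 102 to 318 FPKM. *Prl3b1*, placental lactogen II, was at 86.6 and 109.4 FPKM in NC and at 0.51 and 1.46 FPKM in KD libraries (-5.67 ± 0.46, adjusted p 0.000187). *Pramel5*, of the PRAME-like family that is active around genome activation, went from 331.3 and 279.2 FPKM to 7.16 and 34.7 FPKM (-4.16 ± 0.56, adjusted p 0.00317). *Tnfsf13b*, the B cell activating factor BAFF, went from 34.4 and 44.1 FPKM to 1.41 and 0.994 FPKM (-4.19 ± 0.42, adjusted p 0.0011). In each of these 4 genes both KD libraries were below every other library of the single KD experiment.

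*Psme1*, a subunit of the proteasome activator PA28, was at 69.5 and 103.0 FPKM in NC libraries, 2.88 FPKM in the first KD library and listed at 0 in the second. Its mm9 model overlaps *Fam158a*, and without strand information the reads of both cannot be told apart. *Akr1b8*, an aldo-keto reductase, was at 17.6 and 43.2 FPKM in NC and listed at 0 in both KD libraries. *S1pr2*, a sphingosine-1-phosphate receptor, was at 9.51 and 15.52 FPKM in NC and listed at 0 in both KD libraries. *Scarna6*, a small Cajal body RNA within *Atg16l1*, was at 30.4 and 11.02 FPKM in NC and listed at 0 in both KD libraries, but also in all 6 libraries of the other single KD groups. The remaining genes of the 15 with the largest fall were *Fam46c*, *S100a3*, *Vpreb3*, *Abhd11os*, *Tdgf1*, *Cdc42ep5* and *Id3*. Both KD libraries of these genes lay below both NC libraries, which is a condition of the rule that named them; over all genes tested, 34.4% were lower in this sense and 13.4% higher.

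The promoters of the 266 lower genes were searched for the letters TCAAGGTCA or TCAAGGCCA on either strand, which are forms of the known NR5A2 motif. RefSeq windows (build GRCm38.p6, from 250 bases before to 50 bases after the start) were matched for 220 of the 266 genes, and 10 of them held a match (4.55%). The share was 0.892% over all tested genes (68 of 7621 with a window) and 1.15% over all RefSeq promoters (311 of 27025). Read the other way, 14.7% of the 68 genes with a match were called lower, against 2.78% of the 7553 without. For the higher genes 30 of 38 had a window, too few for this check, which is void for them. A match is a description of letters, not a bound site, and repeat annotation was not used here. The 250 bases before the start are printed for 5 of the 10 genes, chosen after their values were seen as highly expressed genes that show both forms of the motif, with the matches in capitals. Placed on mm9 by exact match, they lie at chr9:72949955-72950204 (plus strand) for *Khdc3*, chr4:143870370-143870619 (minus strand) for *Pramel5*, chr13:94407714-94407963 (minus strand) for *Bhmt*, chr10:59740126-59740375 (plus strand) for *Psap* and chr3:138188905-138189154 (plus strand) for *Eif4e*.
Khdc3: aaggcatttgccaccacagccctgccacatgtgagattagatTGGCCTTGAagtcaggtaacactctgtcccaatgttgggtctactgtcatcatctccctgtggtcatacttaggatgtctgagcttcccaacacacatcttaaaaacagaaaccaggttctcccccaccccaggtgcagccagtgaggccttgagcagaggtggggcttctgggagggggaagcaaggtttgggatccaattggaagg
Pramel5: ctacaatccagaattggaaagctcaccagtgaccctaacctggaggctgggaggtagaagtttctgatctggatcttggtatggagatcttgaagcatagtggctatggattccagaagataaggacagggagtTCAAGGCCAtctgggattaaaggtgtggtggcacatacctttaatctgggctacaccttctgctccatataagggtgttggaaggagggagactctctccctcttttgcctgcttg
Bhmt: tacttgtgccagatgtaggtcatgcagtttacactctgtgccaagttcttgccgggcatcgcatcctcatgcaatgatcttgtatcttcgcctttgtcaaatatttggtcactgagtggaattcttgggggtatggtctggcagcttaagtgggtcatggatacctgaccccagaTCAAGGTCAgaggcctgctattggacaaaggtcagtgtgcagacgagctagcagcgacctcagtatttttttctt
Psap: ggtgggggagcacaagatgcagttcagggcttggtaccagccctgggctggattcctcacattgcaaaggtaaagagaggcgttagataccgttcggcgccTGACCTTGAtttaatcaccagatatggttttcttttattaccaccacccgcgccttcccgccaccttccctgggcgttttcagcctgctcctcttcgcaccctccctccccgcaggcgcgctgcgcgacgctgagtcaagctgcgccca
Eif4e: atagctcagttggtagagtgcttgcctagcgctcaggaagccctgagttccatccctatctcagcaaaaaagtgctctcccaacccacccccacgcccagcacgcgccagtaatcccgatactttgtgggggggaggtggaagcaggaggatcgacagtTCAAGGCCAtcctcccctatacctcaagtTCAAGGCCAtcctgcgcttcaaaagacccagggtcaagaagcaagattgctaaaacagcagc

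*Bhmt*, betaine-homocysteine methyltransferase, was at 561.7 and 524.5 FPKM in NC and at 76.3 and 91.8 FPKM in KD libraries (log2 fold change -2.68 ± 0.34). *Eif4e*, the cap-binding translation factor, has 2 matches and went from 559.2 and 530.2 FPKM to 114.4 and 116.7 FPKM (-2.23 ± 0.33). *Psap*, the precursor of the lysosomal saposins, went from 146.6 and 185.3 FPKM to 22.6 and 27.5 FPKM (-2.68 ± 0.42). All 3 were drawn from the genes called lower, so their fall and the distance of the KD from the NC libraries are part of that choice. The other 5 genes with a match were *Plcd1*, *Gpr161*, *Dcaf4*, *AA414768* and *Gm13102*. The windows of *Pramel5* and *Gm13102* are close copies of each other, and that of *Gpr161* holds a similar stretch around its match. The matches are therefore not all independent of each other.

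**Figure D2:**
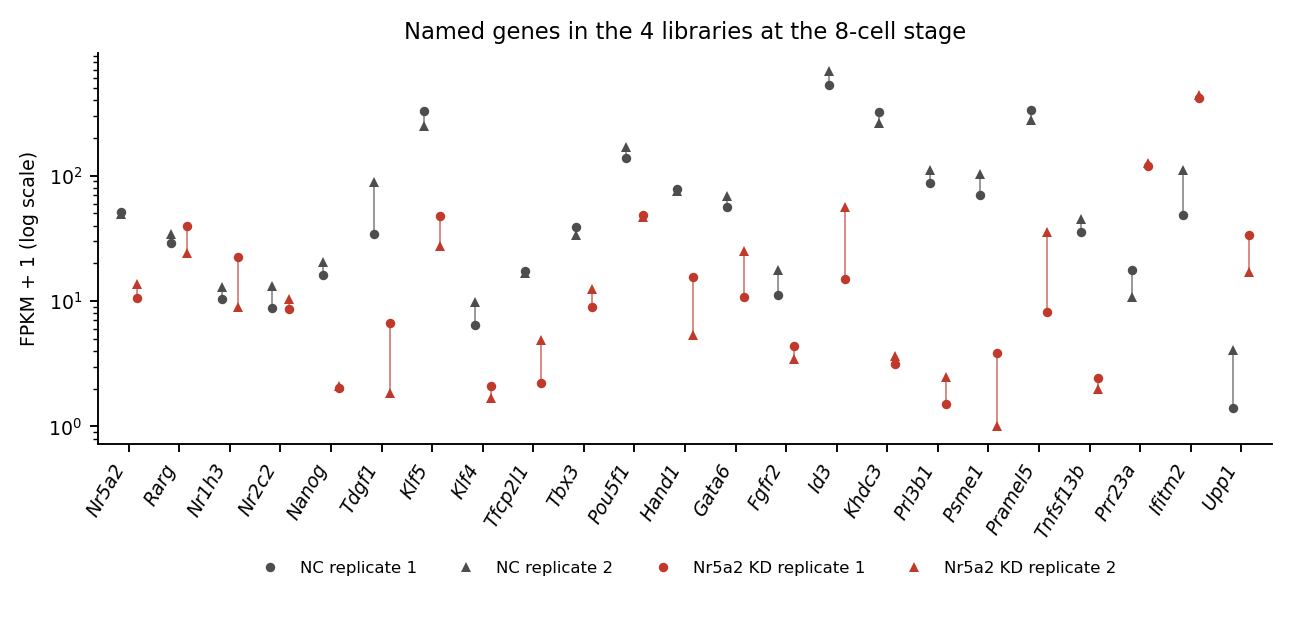
FPKM + 1 (log axis) of 23 named genes in the 4 libraries, 1 point per library, with NC and *Nr5a2* KD in different colours. The NC and KD points are apart for *Nr5a2*, *Khdc3*, *Nanog* and *Klf5* and overlap for *Rarg*.

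Of 22 tested genes of pluripotent cells, 6 fell (27.3%, against 2.83% of all genes) and none rose. The median of the 22 was -0.57, against -0.24 for all genes. Without the first or second NC library 3 and 0 of the list were called lower, and without the first or second KD library 4 and 3, with a median of -0.68 to -0.48. *Nanog*, a homeodomain factor of the ICM, was at 15.2 and 19.4 FPKM in NC and at 1.04 and 1.09 FPKM in KD libraries (log2 fold change -3.14 ± 0.37, adjusted p 0.002). The other single KD libraries were at 12.7 to 27.6 FPKM, so *Nanog* was low in the *Nr5a2* KD libraries alone among these 10. *Klf5*, a Krüppel-like factor needed for the early ICM and trophectoderm, was at 327.2 and 246.6 FPKM in NC and 46.7 and 26.3 FPKM in KD libraries (-2.98 ± 0.35, adjusted p 0.002). *Tdgf1*, the NODAL co-receptor CRIPTO, went from 33.1 and 87.5 FPKM to 5.68 and 0.854 FPKM (-3.96 ± 0.60, adjusted p 0.00518).

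*Tfcp2l1*, *Klf4* and *Tbx3*, 3 further factors of naive pluripotency, also fell. *Tfcp2l1* went from 16.5 and 15.6 FPKM to 1.23 and 3.87 FPKM, *Klf4* from 5.40 and 8.81 FPKM to 1.09 and 0.675 FPKM, and *Tbx3* from 37.9 and 32.6 FPKM to 8.01 and 11.6 FPKM. Their adjusted p-values were 0.0339, 0.0183 and 0.0457. The calls of *Tfcp2l1* and *Tbx3* were lost with median-ratio scaling and with quantile normalization. *Pou5f1* (OCT4) was at 138.3 and 167 FPKM in NC and 47.8 and 46.0 FPKM in KD libraries and missed the threshold (-1.68 ± 0.47, adjusted p 0.0761); against the mean of the other single KD groups its adjusted p was 0.0424. *Zfp42* (REX1) was at 56.7 and 77.0 against 20.6 and 27.5 FPKM (adjusted p 0.0844). Other genes of the list had like levels in both groups: *Esrrb* was at 7.51 and 7.16 against 8.86 and 6.53 FPKM and *Klf2* at 45.4 and 51.9 against 47.9 and 58.1 FPKM. *Utf1* was at 17.9 and 15.3 against 58.7 and 37.7 FPKM, without passing the test (adjusted p 0.0903). *Sox2* was at or near 0 in all 4 libraries.

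Of 11 trophectoderm genes tested, 1 fell (9.09%, against 2.83% of all genes) and none rose. *Hand1*, a factor of trophoblast giant cells, was at 77.9 and 75.1 FPKM in NC and 14.7 and 4.35 FPKM in KD libraries (log2 fold change -3.08 ± 0.50, adjusted p 0.00714). *Tead4*, which partners YAP in trophectoderm specification, was at 70.1 and 57.0 against 36.6 and 24.4 FPKM (-1.06 ± 0.44, adjusted p 0.216). *Gata3* was at 4.17 and 4.83 against 1.25 and 2.86 FPKM (adjusted p 0.454), and *Tfap2c* at 63.3 and 56.1 against 57.4 and 22.2 FPKM (adjusted p 0.389). *Krt8*, a keratin of simple epithelia, was at 6.03 and 3.78 against 20.0 and 20.0 FPKM, which did not pass (adjusted p 0.2). *Cdx2* and *Eomes* did not reach a mean of 1 FPKM in either group and were not tested.

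Among 14 genes of primitive endoderm and FGF signalling, 1 fell (7.14%, against 2.83% of all genes) and none rose. *Fgfr2*, the FGF receptor enriched in primitive endoderm, was at 10.2 and 16.6 FPKM in NC and 3.40 and 2.46 FPKM in KD libraries (log2 fold change -1.85 ± 0.42, adjusted p 0.0367). Its mm9 model spans other genes. *Gata6*, the endoderm GATA factor, was at 55.6 and 67.8 against 9.86 and 24.0 FPKM and just missed the threshold (-1.92 ± 0.48, adjusted p 0.0546). *Fgfr1* was at 6.61 and 11.9 against 2.60 and 0.935 FPKM (adjusted p 0.0794). The libraries of the other single KD groups were also below both NC libraries for *Gata6*, at 21.5 to 45.1 FPKM. *Gata4* was at 7.001 and 10.5 against 26.4 and 10.5 FPKM (adjusted p 0.466), and *Sox17* and *Pdgfra* were near 0 in all 4 libraries.

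*Id3*, a target of BMP signalling that inhibits basic helix-loop-helix factors, was at 531.7 and 682.9 FPKM in NC and at 13.9 and 55.0 FPKM in KD libraries (log2 fold change -4.38 ± 0.51, adjusted p 0.002). The other single KD groups held 260.2 to 486.5 FPKM, below both NC libraries and above both *Nr5a2* KD libraries. With *Smad7*, an inhibitor of SMAD signalling that went from 2.76 and 4.62 FPKM to 0.241 and 0.112 FPKM (adjusted p 0.0392), 2 of the 7 tested genes of the Id and BMP-SMAD list fell (28.6%, against 2.83% of all genes). *Id2* was at 1.16 and 1.63 against 5.39 and 29.6 FPKM and did not pass (adjusted p 0.207). Of 11 Krüppel-like factors, *Klf5*, *Klf4* and *Klf13* fell (27.3%). *Klf13* went from 4.99 and 5.02 FPKM to 0.0546 FPKM and a listed 0. *Klf17*, a factor of the early cleavage embryo, was at 26.9 and 46.5 against 192.1 and 126.7 FPKM (adjusted p 0.162). *Satb1*, a chromatin organiser, went from 19.1 and 24.7 FPKM to 4.78 and 3.21 FPKM (-2.20 ± 0.37, adjusted p 0.0095). *Rangap1*, which activates the Ran GTPase, did not pass, at 52.6 and 77.5 against 88.0 and 53.4 FPKM.

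No member of several lists of the machinery of the embryo was called. None of 17 Hippo pathway genes, 28 genes of compaction, junctions and polarity, 9 genes of fluid transport, 11 genes of DNA methylation and demethylation, 31 proteasome subunits and 79 cytosolic ribosomal proteins passed the test in either direction. Over all genes, 304 of 9400 (3.23%) passed. Lists of this size would hold few calls at that share, so their absence is not read as a trait of these lists. Their medians lay between -0.37 (compaction) and 0.27 (fluid transport), against -0.24 for all genes, and moved with the libraries and the scaling. The compaction median was -0.67 without the first KD library and -0.11 with median-ratio scaling, and the fluid transport median was -0.27 without the first NC library and 0.45 with median-ratio scaling. *Cldn4*, a tight junction claudin, came closest in the compaction list with *Ocln*: *Cldn4* was at 95.9 and 137.5 against 34.7 and 16.2 FPKM (adjusted p 0.0736), and *Ocln* at 8.14 and 11.6 against 2.87 and 1.60 FPKM (adjusted p 0.0604). *Cdh1* (E-cadherin) was at 32.8 and 41.6 against 24.4 and 12.3 FPKM (adjusted p 0.207). Of 3 tested genes known as NR5A targets in other tissues none passed.

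A few metabolic genes fell, with 1 or 2 members called in each list; the share over all genes was 2.83%. *Mpc1*, a subunit of the mitochondrial pyruvate carrier, was at 179.7 and 190.8 FPKM in NC and 45.1 and 28.6 FPKM in KD libraries (log2 fold change -2.33 ± 0.34, adjusted p 0.00471), while the other single KD groups held 161.4 to 248 FPKM. It was called with *Pfkp*, a phosphofructokinase, among 23 genes of glycolysis and pyruvate use (8.70%). *Msmo1*, a sterol demethylase of cholesterol synthesis, went from 68.8 and 81.2 FPKM to 10.4 and 9.12 FPKM (-2.82 ± 0.39, adjusted p 0.00356). *Fdft1*, squalene synthase, went from 136.1 and 165.0 FPKM to 67.1 and 21.6 FPKM (adjusted p 0.0417), in a model that overlaps *Ctsb*. These were 2 of 20 genes of cholesterol synthesis and uptake (10.0%). *Ndufa8* was the single call among 76 genes of oxidative phosphorylation (1.32%), a share below that of all genes. Of 14 cyclin and CDK genes 1 fell (7.14%): *Cdk1*, the mitotic kinase, went from 256.3 and 188.8 FPKM to 61.0 and 59.4 FPKM (-1.85 ± 0.33, adjusted p 0.0107); *Ccnb1*, its cyclin, was at 166.5 and 191.2 against 203.6 and 157.1 FPKM. None of 15 p53 response genes passed; *Mdm2* was at 17.4 and 17.9 against 68.9 and 33.6 FPKM (adjusted p 0.0959) and *Cdkn1a* at 87.2 and 84.3 against 50.1 and 102.0 FPKM.

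**Figure D3:**
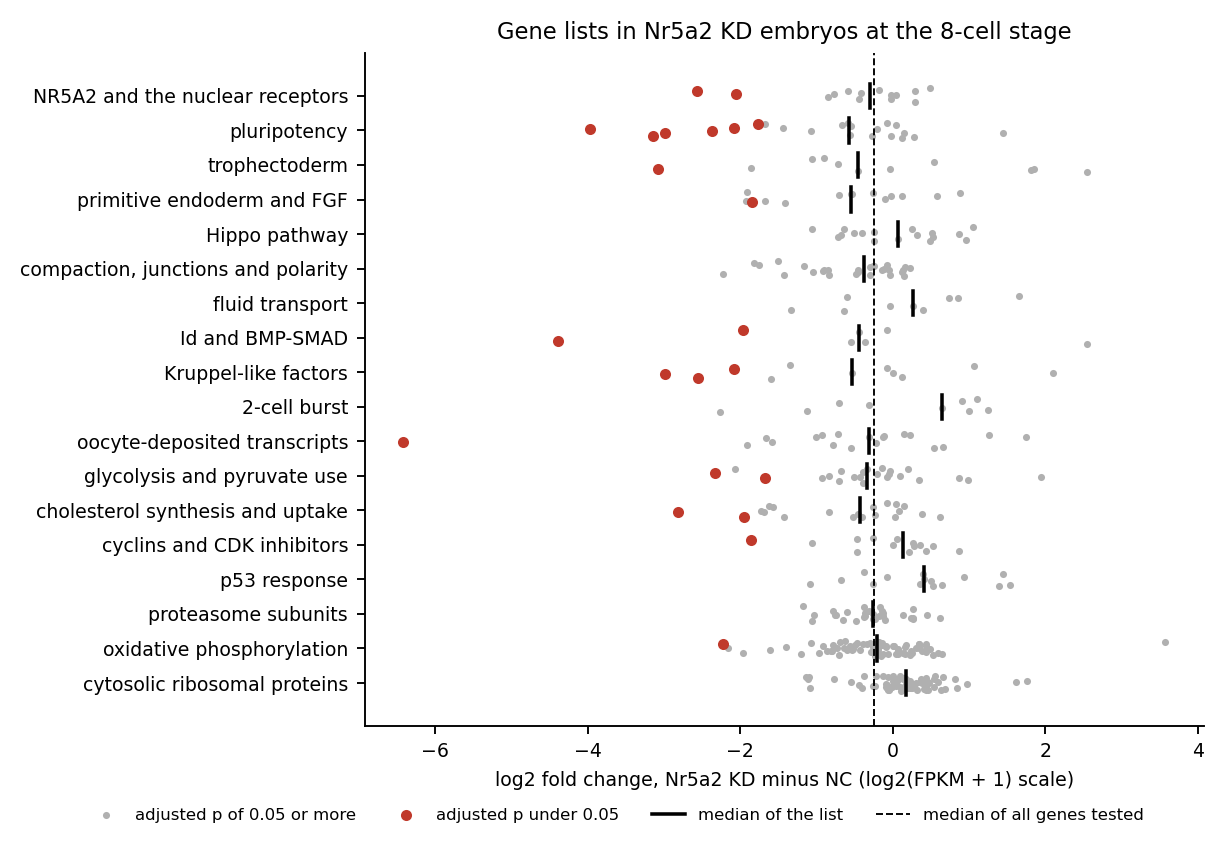
Log2 fold change of *Nr5a2* KD against NC at 8C for the tested genes of 18 lists, 1 point per gene. Called genes are red, bars mark list medians, and the dashed line is the median of all genes at -0.24; the pluripotency list holds 6 called genes and the Hippo list none.

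The genes that rose were mostly at or near 0 in the NC libraries. *Upp1*, uridine phosphorylase, was at 0.394 and 3.04 FPKM in NC and 32.7 and 16.01 FPKM in KD libraries (log2 fold change 3.34 ± 0.60, adjusted p 0.0125), and the other single KD libraries were at 0.379 to 4.09 FPKM. *Cda*, cytidine deaminase, another enzyme of pyrimidine salvage, was listed at 0 in both NC libraries and was at 8.85 and 6.38 FPKM in KD libraries. *Prr23a* went from 16.6 and 9.71 FPKM to 118.4 and 126.1 FPKM (3.17 ± 0.41, adjusted p 0.0027), above all 6 other single KD libraries, which held 13.52 to 28.2 FPKM. *Ifngr1*, the interferon gamma receptor, went from 0.842 and 2.06 FPKM to 25.7 and 10.6 FPKM (2.89 ± 0.58, adjusted p 0.0204). *Obox3*, an oocyte and 2-cell homeobox gene, was listed at 0 and at 1.01 FPKM in NC and was at 7.07 and 6.75 FPKM in KD libraries; it overlaps its near copy *Obox1*, so its values are uncertain.

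For some genes that rose, the NC libraries also stood below the other single KD groups. *Ifitm2*, an interferon-induced transmembrane protein, was at 47.2 and 109.8 FPKM in NC, 414.2 and 442.8 FPKM in *Nr5a2* KD, and 168.2 to 220.7 FPKM in the other groups (log2 fold change against NC 2.55 ± 0.39, adjusted p 0.00545; against the other groups 1.15, adjusted p 0.0639). *Car4*, a carbonic anhydrase, was at 4.90 and 0.264 FPKM in NC, 26.9 and 25.0 FPKM in *Nr5a2* KD, and 4.88 to 18.5 FPKM in the other groups (against the other groups 1.16, adjusted p 0.271). The remaining genes of the 10 with the largest rise were *Rdh12*, *Dmkn*, *Gdpd1* and *Nlrp6*.

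Lists that the study drew from other embryos order genes by the stage at which they become active. Of 58 tested genes activated between 4C and 8C, 10 fell (17.2%, against 2.83% of all genes) and 1 rose, with a median of -1.07. The summed FPKM of this list was 931.4 and 1053 in NC and 531.1 and 604.7 in KD libraries. The lower ones included *Prl3b1*, *Crygs*, *S100a3* and *Plcd1*, and the higher one was *Car4*. Without the first or second NC library 3 and 1 of the list were lower, and without the first or second KD library 6 and 6. Major ZGA genes were called at shares nearer to those of all genes: 44 of 1013 fell (4.34%) and 10 rose (0.987%), with a median of -0.12, above that of all genes. Late 2C genes gave 23 lower (4.59%) and 6 higher (1.20%) of 501. *Pramel5*, *Psme1*, *Klf5*, *Casp6* and *Bag3* were among the lower ZGA genes. None of 37 tested genes activated in the ICM was called. The study defines such genes by an FPKM under 1 at all earlier stages, and 37 of the 130 in the files could be tested. A fall at 8C could therefore hardly be seen in this list. ZGA and late 2C lists share genes.

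Markers of other cells and stages were read in the same libraries. Of 15 cumulus and granulosa cell markers, 13 were listed at 0 in all 4 libraries, including *Fshr*, *Cyp19a1* and *Has2*; *Amhr2* alone was above 1 FPKM, and the summed level was 11.7 and 10.4 FPKM in NC and 12.97 and 6.19 FPKM in KD libraries. Of 9 tested genes of the 2-cell burst none passed, with sums of 241.2 and 228.7 FPKM in NC and 109.7 and 150.9 FPKM in KD libraries, most of it *Sp110*. The median of the 9 was above 0, at 0.64, and at -0.06 without the second KD library; *Zscan4c*, *Zscan4d* and *Dux* were below 1 FPKM in all 4 libraries. Among 19 tested oocyte transcripts *Khdc3* fell (5.26%, against 2.83% of all genes) and none rose. *Khdc3* averaged 4.51 FPKM in 2C NC and 292.2 FPKM in 8C NC embryos, which are separate experiments, so its 8C level does not report RNA left from the oocyte. *Zp3* was at 29.3 and 31.2 FPKM in NC against 132.0 and 81.3 FPKM in KD libraries (limma, adjusted p 0.0662). Of 9 tested genes listed as markers of 8C embryos, *Upp1* rose (11.1%, against 0.404% of all genes) and none fell. *Upp1* was itself low in both 8C NC libraries, as given above, so it did not mark 8C embryos in these data. The sums of the list were 358.8 and 392.6 FPKM in NC and 429.5 and 291.1 FPKM in KD libraries. Whether the KD embryos were at the same point of the 8C stage as the NC embryos was not tested.

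The other single KD groups share the NC libraries with this comparison and showed few changes: limma called 1 lower gene for *Rarg* (0.0106% of 9400), 1 for *Nr1h3* (0.0106%) and 8 for *Nr2c2* KD (0.0851%), and no higher gene for any. The 266 genes had medians of -0.41, -0.28 and -0.49 in these groups (-0.11, -0.01 and -0.27 for all genes) and the 38 had medians of 0.69, 0.64 and 0.43, but the NC libraries that chose them are also the controls here. *Nr5a2* KD was therefore also compared with the mean of these 3 groups, a contrast in which the NC values have no weight. The NC libraries still entered the gene filter and the estimate of the spread. The *Nr5a2* KD libraries are those that helped to choose the 266 and 38 genes, so calls in both comparisons are not independent. This contrast gave 338 lower genes (3.60%) and 85 higher genes (0.904%), and the median of all genes was -0.09. *Khdc3* (-5.66), *Prl3b1* (-5.28), *Tdgf1* (-4.71), *Id3* (-3.72), *Nanog* (-3.26), *Hand1* (-2.44) and *Klf5* (-2.21) were called lower in it, and *Upp1* (3.11) and *Prr23a* (2.65) higher. *Klf4*, *Tbx3*, *Fgfr2*, *Smad7* and *Pfkp* did not pass there. Without the second *Nr5a2* KD library 144 were lower and 162 higher, and without the first 215 and 45.

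The 266 lower and 38 higher genes were then followed in libraries that took no part in calling them. By the labels the embryos with siRNAs against several receptors received 5 μM per target, and their NC embryos 20 μM (for 4 targets) or 15 μM (for 3 targets). In 8C embryos with siRNAs against all 4 receptors (4KD), 260 of the 266 lower genes were below the NC of that experiment (97.7%, against 48.9% of all genes), with a median log2 fold change of -1.42 against 0 for all genes. In 4C 4KD embryos 245 were below NC (92.1%, against 50.3% of all genes), with a median of -0.82. Of the 37 higher genes tested, 35 were above NC in 8C 4KD embryos (94.6%, against 49.9% of all genes), with a median of 1.82. The study's list of genes lower in 8C 4KD embryos held 280 tested genes, of which 134 were called lower here. They made up 47.9% of that list (against 2.83% of all genes) and 50.4% of the 266. Of the study's 173 genes higher in 8C 4KD embryos, 13 were called higher here. They made up 7.51% of that list (against 0.404% of all genes) and 34.2% of the 38. The 134 became 22 and 3 without the first or second NC library and 121 and 68 without the first or second KD library, and the 13 became 2, 1, 4 and 10. The genes called lower without the second KD library (107) had a median of -1.73 in 8C 4KD embryos, and those called without the first (301) a median of -1.03. limma called none of 10476 genes in the 4KD fit itself at an adjusted p under 0.05, at either stage (784 at 8C and 610 at 4C had an unadjusted p under 0.05).

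Embryos with siRNAs against 3 of the receptors (3KD) separate the presence of the *Nr5a2* siRNAs from the number of targets. With *Nr5a2* among the targets, the 266 lower genes had medians of -1.21 without *Rarg* siRNAs, -0.98 without *Nr1h3* siRNAs and -1.12 without *Nr2c2* siRNAs. Of the 263 tested, 96.6%, 90.9% and 95.1% lay below NC, against 41.5%, 41.7% and 42.0% of all genes. Without *Nr5a2* siRNAs the median was 0.24 and 28.1% lay below NC, against 0.13 and 37.7% for all genes. These 4 groups share their NC libraries. The single libraries did not overlap: the median difference of the lower genes from NC was 0.14 and 0.34 in the 2 libraries without *Nr5a2* siRNAs and -1.19 to -0.92 in the 6 libraries with them. The 38 higher genes had medians of 1.34, 1.23 and 1.75 with *Nr5a2* among the targets and 0.02 without. *Khdc3* was at 91.8 and 149.4 FPKM without *Nr5a2* siRNAs, and at 0.829 to 4.53 FPKM in 4 of the 6 libraries with them, 0.213 and 31.6 FPKM in the other two.

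**Figure D4:**
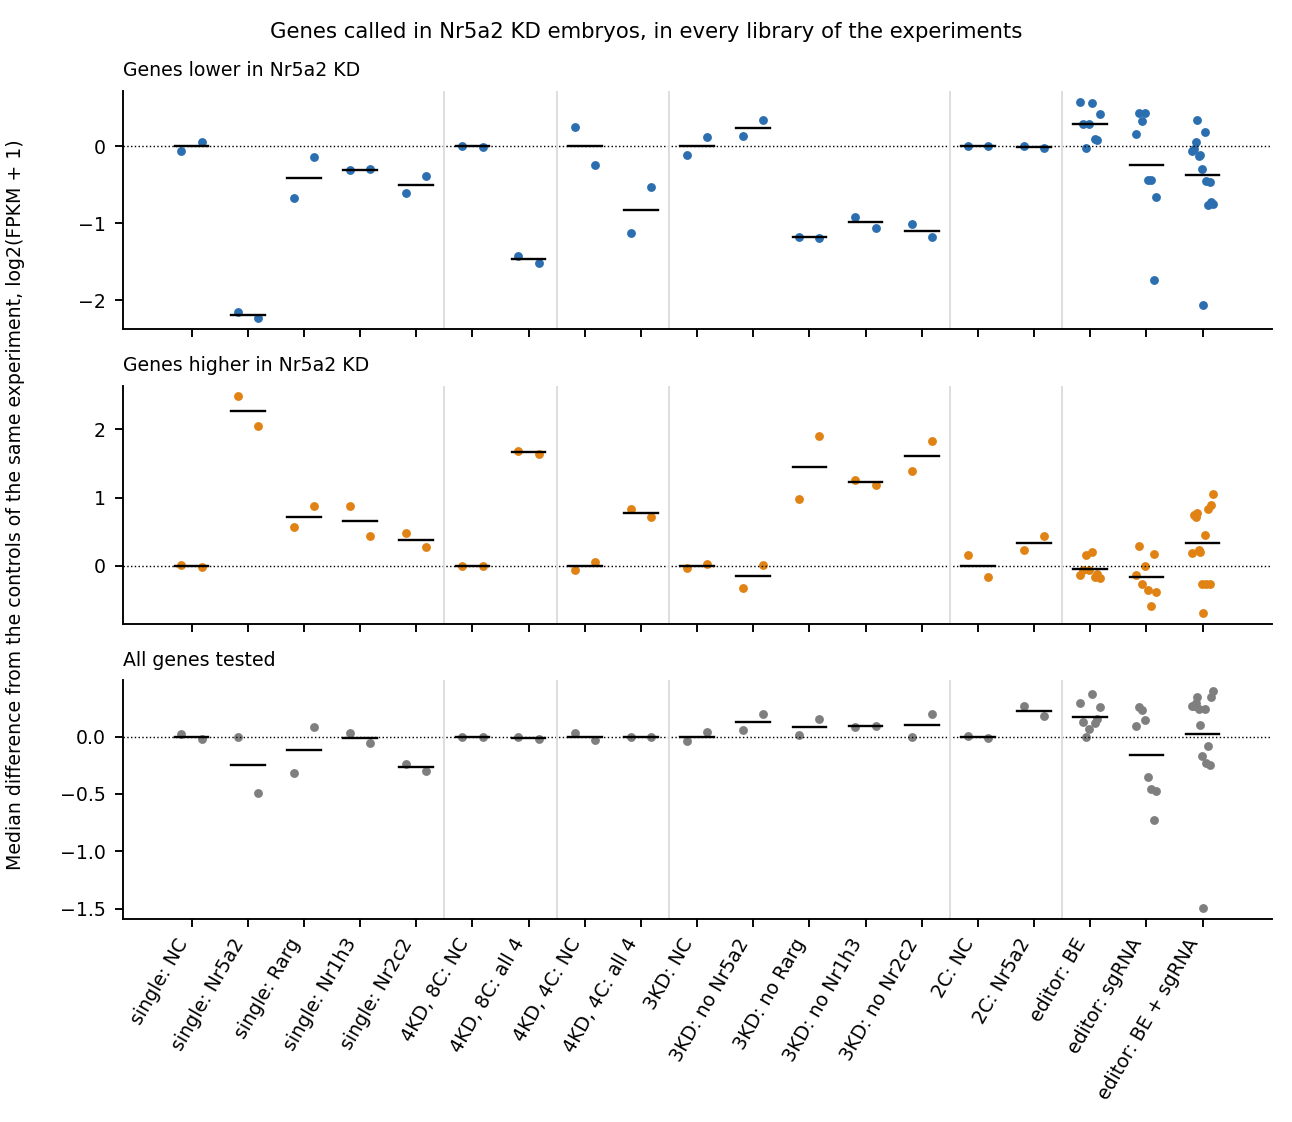
Median difference in log2(FPKM + 1) from the controls of the same experiment, 1 point per library, for the 266 lower genes, the 38 higher genes and all 9400 genes. The libraries with *Nr5a2* siRNAs at 4C and 8C lie below 0 for the lower genes and above 0 for the higher genes, while in the 2C KD libraries and the 3KD libraries without *Nr5a2* siRNAs the lower genes lie between -0.02 and 0.34. The higher genes lie at 0.23 and 0.43 in the first and second 2C KD library, where all genes lie at 0.27 and 0.18.

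At the 2-cell (2C) stage, where *Nr5a2* KD and NC embryos had been injected with 20 μM siRNA, about as many of the same genes lay above NC as below. *Nr5a2* itself went from 19.4 and 24.3 FPKM to 2.72 and 6.13 FPKM (log2 fold change -2.14). Of the 247 lower genes tested at 2C, 51.0% were below NC, against 32.5% of all genes, and their median was -0.04, against 0.23. The NC libraries at 2C also held less of them: their median level was 6.74 and 7.17 FPKM there, 15.8 and 10.8 FPKM in 4C NC, 20.4 and 21.6 FPKM in 8C NC of the 4KD experiment, and 23.4 and 27.1 FPKM in the NC libraries used to call them. From 4C to 8C in the NC of the 4KD experiment, 83.1% of the 266 went up, against 48.5% of all genes. Of the 37 higher genes tested, 73.0% went down, against 50.4% of all genes. The 38 higher genes had a median level of 7.69 and 4.19 FPKM in 2C NC, 1.46 and 0.877 FPKM in 8C NC of the 4KD experiment, and 2.44 and 1.96 FPKM in 8C NC of the 3KD experiment. In the libraries that chose them it was 0.426 and 0.716 FPKM in NC and 8.82 and 7.35 FPKM in KD. A call as lower favours genes that are high in 8C NC embryos, and a call as higher favours genes that are low there. Part of these differences between stages is therefore built in by the choice, and all genes are not a matched set for them.

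The difference between the 8C and 2C effects was tested in 1 fit over both experiments. It passed for 44 genes that were lower at 8C relative to 2C (0.347% of 12685) and for 3 in the other direction (0.0236%). Of the 44, 32 were among the 266 lower genes. The contrast contains the 4 libraries that called those 266 genes, so this overlap is partly built in and is no separate evidence. Another 8 of the 44 averaged less than 1 FPKM in both 8C groups and were higher in 2C KD than in 2C NC embryos. *Khdc3* had a difference of -6.21 ± 0.64 (adjusted p 0.00521), and stood at 4.28 and 4.74 FPKM in 2C NC, close to its level in 8C KD embryos. *Tnfsf13b*, in contrast, was at 65.7 FPKM in 2C NC and 66.6 FPKM in 2C KD embryos on average, and its difference was -4.20 ± 0.53 (adjusted p 0.013). *Klf5* was at 10.2 and 23.6 FPKM in 2C NC and 27.3 and 26.2 FPKM in 2C KD libraries, and its difference was -3.72. For *Nr5a2* the difference was 0.08 (adjusted p 0.963). Stage, siRNA dose and experiment cannot be told apart in this contrast, and without the first or second NC library 3 and 2 genes were lower, without the first or second KD library 29 and 4. The 2C libraries moved the count more: 284 and 192 genes were lower and 122 and 144 higher without the first or second 2C NC library, and 284 and 225 were lower and 37 and 25 higher without the first or second 2C KD library.

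In 8C single embryos injected with a base editor (BE, 100 ng/μl mRNA) and an *Nr5a2* sgRNA, most of the same genes lay on the same side of the controls, with smaller differences. Few passed the test: 2 of the 265 lower genes tested were called lower (0.755%, against 0.0307% of all genes) and 2 of the 28 higher genes called higher (7.14%, against 0.133%). The *Nr5a2* transcript level does not report an edit of its sequence, and its log2 fold change against embryos with BE or sgRNA alone was 0.21. Of 265 lower genes tested, 235 were below the controls (88.7%, against 48.4% of all genes), with a median of -0.43 against 0.01. Of 28 higher genes tested, 22 were above (78.6%, against 51.6% of all genes), with a median of 0.53. The column headers of 2 of the 14 embryos with both name the 4-cell stage, against their titles. Without them the medians were -0.36 and 0.47, and limma called none of 9629 genes (711 had an unadjusted p under 0.05, 41 of the 265 lower genes among them). The headers also name 2 editors. For the lower genes, BE and sgRNA against BE alone gave a median of -0.23 (0.04 for all genes) in 6 against 4 embryos with eBE in the header, and -0.97 (-0.44 for all genes) in 6 against 4 with BE4. For the higher genes these medians were 0.54 and -0.04. The single embryos overlapped widely. The median difference of the lower genes was lowest at -0.02, had its median at 0.28 and was highest at 0.58 in the 8 BE embryos; these values were -1.73, -0.14 and 0.43 in the 8 sgRNA embryos and -2.06, -0.21 and 0.34 in the 14 embryos with both. In the embryos at -1.73 and -2.06 the median of all genes was low as well, at -0.72 and -1.49. *Khdc3* (-2.09) and *Nanog* (-1.40) were lower there without passing the test (adjusted p 0.217 for both).

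**Figure D5:**
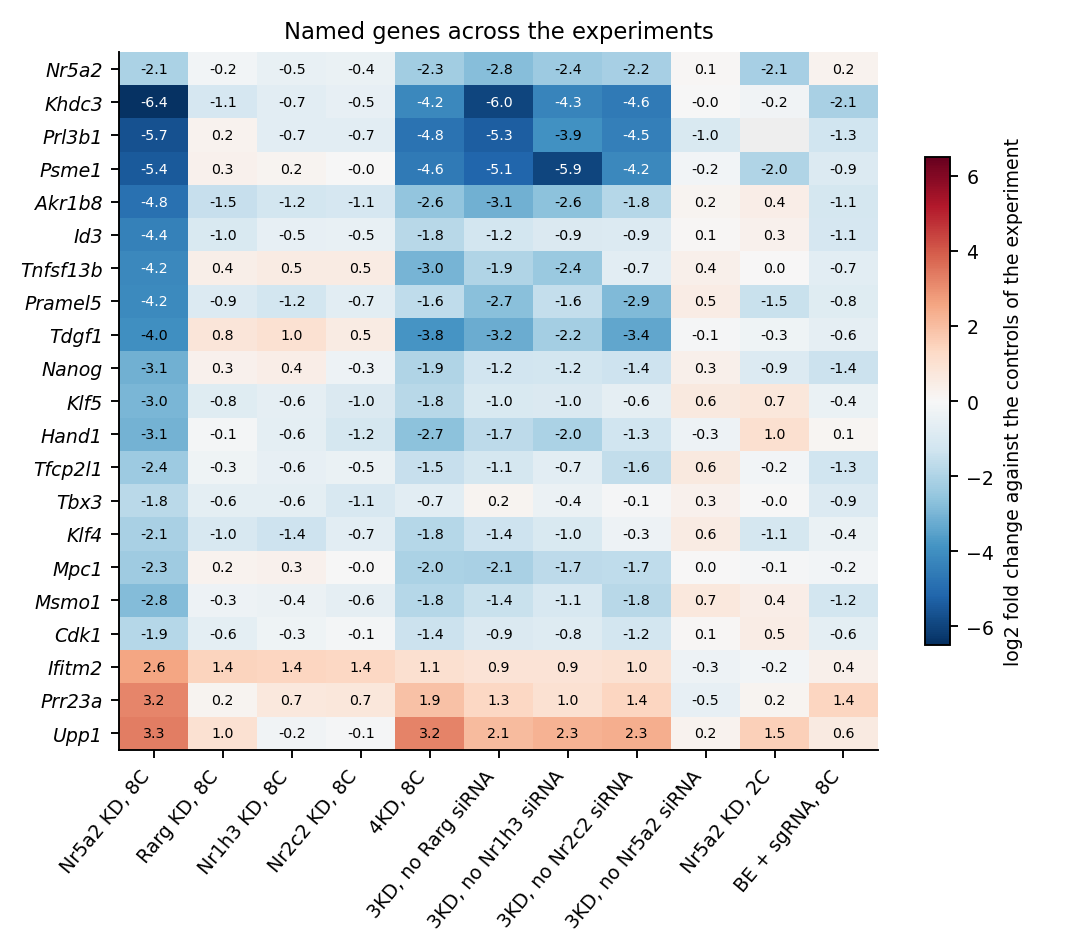
Heat map of log2 fold changes of 21 named genes (rows) in 11 comparisons (columns), each against the controls of its own experiment, with blue for lower and red for higher. *Khdc3*, *Prl3b1* and *Nanog* are lower in the 8C comparisons with *Nr5a2* siRNAs, and *Khdc3* is at -0.04 in the 3KD comparison without them.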

How the data were processed

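The authors deposited FPKM per gene, made from Smart-seq2 reads mapped to mm9 with refFlat gene models; FPKM are scaled for transcript length and for the mapped fragments of a library, with no further scaling between libraries, and hold no read counts. Depth is therefore unknown, and no interval or detection limit for counting error is given. The submitters' processing notes name CASAVA 1.8, Bowtie2 2.2.2, MACS 1.4.2, bedtools 2.29.0 and mm9.

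Libraries were taken by title. FPKM were compared as log2(FPKM + 1) with limma 3.58.1 (R 4.3.3), the 10 libraries of the single KD experiment in 1 fit, on genes that averaged 1 FPKM or more in NC or *Nr5a2* KD, with an eBayes trend and Benjamini-Hochberg adjustment over all genes tested. Genes were called at an adjusted p of less than 0.05. The edgeR test of the study's methods needs counts and could not be run. Other experiments were fitted separately, and the difference between 8C and 2C effects was fitted with both. The fits were tested on simulated data.

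The members and lists were chosen with earlier results of these data known. Named genes are the targeted receptors, those the study names for this comparison, the 15 called genes with the largest fall and the 10 with the largest rise (libraries of the groups apart, mean of at least 5 FPKM in either group), called genes of the pluripotency, trophectoderm and primitive endoderm lists, and up to 4 called genes of each other list. A few other list members are given with their values, chosen after these were seen. Gene coordinates and overlaps are from GENCODE M1 on mm9; promoter sequences are from RefSeq (GRCm38.p6), placed on mm9 by exact match. Alternatives were another pseudocount, filters, scalings, eBayes with no trend, a block for the replicate number, fewer libraries in the fit, single control groups and leaving out each library; calls of the lists without each library, the stage difference without each 2C library, the base editor comparison without 2 libraries and by editor name, and the methods' limits with median-ratio scaling were added after seeing the data. CUT&RUN and other samples without FPKM were not used here, nor were 30 libraries with FPKM from conditions outside these comparisons.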

Additional observations from a re-analysis of the deposited data

Results flagged for a closer look

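The effect of *Nr5a2* KD differed between 8C and 2C for 44 genes that were lower at 8C relative to 2C and for 3 in the other direction (limma, adjusted p under 0.05, 12685 genes). Of the 44, 8 averaged less than 1 FPKM in both 8C groups. Stage, siRNA dose (5 and 20 μM) and experiment cannot be told apart in it. Among the named genes the log2 differences were -6.21 for *Khdc3*, -5.67 for *Prl3b1* (listed at 0 in all 2C libraries), -5.28 for *Akr1b8*, -4.68 for *Id3*, -4.20 for *Tnfsf13b*, -3.72 for *Klf5*, -3.51 for *2310040G24Rik*, -3.47 for *S1pr2*, -3.33 for *Crygs* and -2.88 for *Pfkp*, whose mm9 model overlaps *Pitrm1*. *2310040G24Rik* was the most abundant of these at 8C, at 1361 and 1331 FPKM in NC and 136.8 and 195.4 FPKM in *Nr5a2* KD libraries. *Crygs*, *S1pr2* and *Pfkp* averaged 0, 1.34 and 1.37 FPKM in 2C NC. Like *Prl3b1*, they had little or no room to fall at 2C.

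A single embryo stood far from the other 7 of the 8C sgRNA group. The median log2(FPKM + 1) of the 266 lower genes was 2.24 in it (replicate 7). Chance alone sets such a flag in about 1 of 20 groups.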

How the results depend on the processing

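All 48 called genes among those named kept their direction under the 13 alternatives in which they were tested, and *Khdc3*, *Prl3b1*, *Scarna6* and *Tnfsf13b* kept their call in all of them. Both NC libraries carried many calls: 16 of the 48 kept it without the first and 5 without the second, against 32 and 29 without the first or second KD library. A lone library is assumed there to vary like the other groups. *Scarna6* also had no listed expression in any library of the other single KD groups, as given above, which comparisons with NC do not show.

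For *Nr5a2* KD against NC, the unfiltered test gave 92 lower and 21 higher genes, median-ratio scaling 100 higher, quantile normalization 118 higher and a fit of only the 4 libraries 77 higher. The methods' limits gave 74 and 2, or 43 and 3 with median-ratio scaling (added after seeing the data), and an unadjusted p under 0.05 and log2 values beyond 1 gave 1220 and 362. Leaving out a library gave 6 to 301 lower and 1 to 69 higher genes. Against the other single KD groups, a pseudocount of 0.1 gave 53 higher, no filter 162 lower, median-ratio scaling 261 higher and quantile normalization 274 higher. Against *Rarg*, *Nr1h3* or *Nr2c2* KD alone the counts were 135, 209 and 99 lower and 20, 29 and 28 higher; leaving out a KD library gave 144 to 215 lower and 45 to 162 higher. For the difference between 8C and 2C, median-ratio scaling gave 15 lower, quantile normalization 8 lower, a mean FPKM of at least 5 gave 0 higher, and eBayes without a trend 1 higher; leaving out a library gave 2 to 284 lower and 0 to 144 higher (2 to 29 and 0 to 5 for the 8C libraries; the 2C libraries were added after seeing the data). The causes were not tested.

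Of the genes not called, *Rarg* turned to 0.269 with median-ratio scaling and 0.239 with quantile normalization, and *Nr2c2* to 0.099 and 0.135. *Gata6* passed with the replicate block (limma, adjusted p 0.0191), and *Fgfr1* in the fit of only the 4 libraries (limma, adjusted p 0.0446). Leaving out a library gave log2 fold changes of -0.387 to 0.333 for *Rarg*, -0.361 to 0.959 for *Nr1h3*, -0.472 to 0.108 for *Nr2c2* and -0.253 to 0.457 for *Rangap1*. Calls lost outside the left-out libraries and the unfiltered test were those of *Tbx3*, *Tfcp2l1*, *Pfkp*, *Fdft1*, *Vpreb3*, *Dmkn*, *Obox3* and *Cdk1*, each under 1 to 4 alternatives.

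Replicate numbers are shared by the groups, but nothing in the labels says that a number marks a common day or litter. Deviations of NC and *Nr5a2* KD libraries with the same number correlated at 0.111 across genes, and the 10 pairs of groups ranged from -0.0432 to 0.161. With the replicate block, 273 genes were lower and 50 higher against NC, 362 and 98 against the other single KD groups, and 27 and 3 in the difference between stages.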
